A study of Mus musculus with 4 samples.

Results

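The lysosomal genes described here are 42 mouse genes for lysosomal hydrolases, their cofactors, membrane proteins, proton pump subunits and the regulators Tfeb and Mitf, without the cathepsins. The list was drawn up by function, with earlier results of these data known, and all probe sets that the platform annotation gives to its symbols were taken from both array types. Of the 42 genes, 41 had a probe set on the larger array, 39 had one on both arrays, and 37 passed the filter on low signal and were tested, among 7820 genes tested in all. No probe set was listed under Cd63. The 41 genes were read by 93 probe sets, of which 73 were on both array types, 62 were tested and 20 were on the larger array alone.

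The lysosome is the acidic compartment in which cells break down complex lipids, sugar chains, glycogen and proteins. Each hydrolase cuts 1 kind of bond, some need a small activator protein to reach a lipid substrate, and the loss of a single enzyme stores its substrate in the cell. The vacuolar proton pump keeps the compartment acidic. Tfeb and Mitf, factors of the MiT/TFE family, bind an E-box in the promoters of many of these genes. In myeloid cells lysosomal hydrolases serve the digestion of engulfed material.

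The study compared granulocyte/monocyte progenitors (GMP), bone marrow cells sorted by flow cytometry, from wild type mice and from mice deficient in Icsbp, also called Irf8, a transcription factor with known roles in the choice between monocytes and granulocytes. There were 4 arrays, 1 wild type and 1 Icsbp-deficient on the 430A type, and the same on the larger MOE430_2 type. Each carried RNA of pooled marrow from mice 10 to 16 weeks old, at least 10 wild type or at least 8 deficient animals. The wild type 430A array is labelled as GMP of mixed C57/Bl6 and S129Ola background with no genotype, and the series' design text places it as wild type. The sources used here give neither the strain of the other pools, nor the deficient allele, nor that array's labelling kit. An ENZO kit is named for the deficient 430A array and a one-cycle kit for the MOE430_2 pair, and whether the 430A pair shared a kit is not known. A further deficient preparation that the design text mentions was not analysed here. Both Irf8 probe sets were still read in deficient GMP, with normalized signals of 2778 and 3268 on the 430A and 2732 and 1889 on the MOE430_2 arrays, against 3054 and 3070, and 4887 and 1846, in wild type. The deleted part of the gene is not given, so these probe sets do not check the labels. None of 11 GMP marker genes, among them Mpo, Elane and Prtn3, lay under a signal of 50 on all arrays. By the test described next, 4 of the 11 differed: Cd34, a surface protein of progenitors, fell (log2 ratio -1.73), while Fcgr3, Cebpa and Csf2rb rose (1.00, 0.69 and 0.55).

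Signals below were scaled to a trimmed mean of 500 and quantile normalized between the arrays of a type. A ratio is Icsbp-deficient over wild type within 1 array type, as log2(signal + 50), which understates changes of dim genes. Folds are likewise of signal + 50, not of the signals printed. The test was limma with array type as a block over n = 2 ratios, ± is its moderated standard error, and adjusted p is Benjamini-Hochberg over the 7820 genes with a threshold of 0.05. The spread of a gene is borrowed mostly from other genes, since 2 ratios leave 1 residual degree of freedom. In RNA of a mixed sort, fewer cells of a type and less RNA per cell cannot be told apart.

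Icsbp-deficient GMP had more transcript of 4 of the 37 tested lysosomal genes, and none of the 37 passed the test as lower. The genes that rose were Gm2a, the activator that presents the ganglioside GM2 to hexosaminidase, Neu1, the sialidase that removes terminal sialic acid, Man2b1, the alpha-mannosidase of glycoprotein breakdown, and Acp5, a tartrate-resistant acid phosphatase. They were 1.46 to 1.82-fold higher. Against this 10.8% of lysosomal genes, 4.12% of all genes tested rose, and 3.29% fell. At an unadjusted p under 0.05 in limma, 7 of the 37 lysosomal genes were higher and 1 was lower. Of all 7820 genes, 818 were higher and 847 lower at that threshold. The median log2 ratio was 0.14 over the 37 genes and -0.01 over all genes. The ratio was above 0 on both array types for 18 of the 37, or 48.6%, against 30.7% of all genes, and below 0 on both for 4, against 34.4%.

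**Figure D1:**
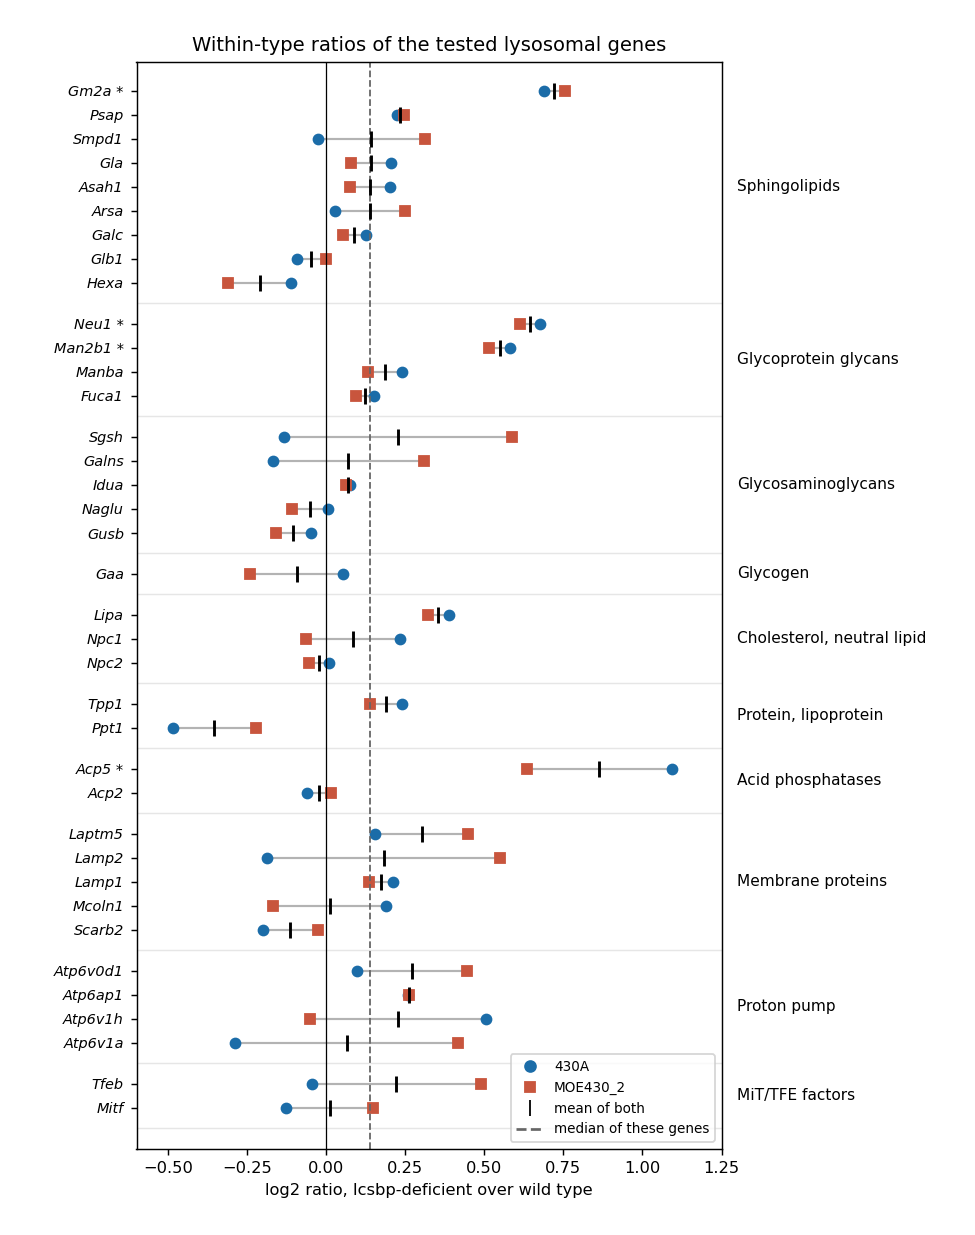
Log2 ratio of Icsbp-deficient over wild type for each of the 37 tested lysosomal genes, grouped by substrate or role; circles are the 430A pair, squares the MOE430_2 pair, ticks their mean, and the dashed line the median of 0.14. An asterisk marks the 4 genes that passed the test (Gm2a, Neu1, Man2b1 and Acp5), whose ratios were above 0.5 on both array types. Of all 7820 genes tested, 260 were higher and 191 lower by at least 0.5 on both types.

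Sphingolipid breakdown was covered by 9 tested genes, with a median ratio of 0.14. Of these 1 rose and 0 fell, where 4.12% of all genes rose and 3.29% fell, so the count is too small to mark the class. Gm2a signal was 1527 in wild type and 2490 in deficient GMP on the 430A arrays, and 1488 and 2544 on the MOE430_2 arrays. The mean log2 ratio was 0.72 ± 0.12, or 1.65-fold (limma adjusted p = 0.00491). A further probe set of Gm2a gave 0.82 and 0.65 on the 430A and MOE430_2 arrays (limma adjusted p = 0.0224 over all probe sets). Hexa, the hexosaminidase subunit that works with Gm2a on GM2, did not pass, with signals of 4557 and 4220 on the 430A and 4401 and 3542 on the MOE430_2 arrays. Its mean ratio was -0.21, with a 95% interval from -0.45 to 0.03. The difference between Gm2a and Hexa was not itself tested.

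The other sphingolipid genes gave ratios between -0.05 and 0.23, none past the test. Psap, the precursor of the saposins, which activate several of these enzymes, had signals of 3746 and 4379 on the 430A and 2864 and 3403 on the MOE430_2 arrays. It was about equally higher on both types, at 0.22 and 0.24 (mean 0.23 ± 0.11, limma adjusted p = 0.246). Smpd1, the acid sphingomyelinase, Gla, the alpha-galactosidase, Asah1, the acid ceramidase, and Arsa, the sulfatase of sulfatide, all had mean ratios of 0.14. Galc, the galactosylceramidase, was at 0.09 and Glb1, the beta-galactosidase, at -0.05, with a Glb1 signal of 1067 on both MOE430_2 arrays.

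Enzymes that trim the sugar chains of glycoproteins were the class with the highest median among those with more than 2 tested genes, at 0.37. Of the 4 tested genes 2 rose, and all 4 were positive on both array types. Over all genes 4.12% rose and 30.7% were positive on both. Man2b1 signal was 3795 in wild type and 5708 in deficient GMP on the 430A arrays, and 5269 and 7547 on the MOE430_2 arrays. The mean ratio was 0.55 ± 0.10, or 1.46-fold (limma adjusted p = 0.00774). A dimmer Man2b1 probe set did not follow, at -0.21 on 430A and 0.29 on MOE430_2. With the mean over probe sets the Man2b1 ratio was 0.30 (limma adjusted p = 0.184).

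Neu1 signal was 676.8 in wild type and 1111 in deficient GMP on the 430A arrays, and 742.0 and 1160 on the MOE430_2 arrays. The mean ratio was 0.64 ± 0.13, or 1.56-fold (limma adjusted p = 0.0151). A dimmer Neu1 probe set gave nearly the same mean, 0.64, and did not pass over all probe sets (limma adjusted p = 0.148). Manba, the beta-mannosidase that acts after Man2b1, was at 0.19 ± 0.14, and the fucosidase gene Fuca1 at 0.12 ± 0.13. Aga, which cuts the bond between sugar and asparagine, was read on the MOE430_2 arrays alone, with a signal of 549.2 in wild type and 662.2 in deficient GMP, a single ratio of 0.25 with no replicate.

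**Figure D2:**
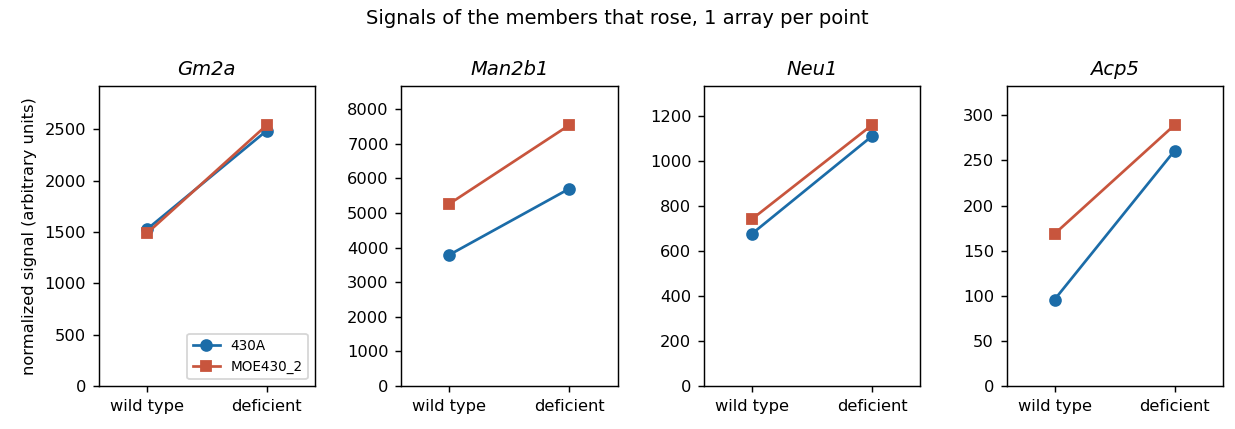
Normalized signal of Gm2a, Man2b1, Neu1 and Acp5 on each of the 4 arrays, with a line joining the wild type and the Icsbp-deficient array of a type. The 4 genes are those that passed the test, and each line rises, by 0.51 to 1.09 on the log2 scale. Signals were quantile normalized within a type, so levels are not compared across types.

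None of the 5 tested enzymes of glycosaminoglycan breakdown passed the test, and their median ratio was 0.07. Gusb, the beta-glucuronidase, had signals of 2131 and 2058 on the 430A and 3411 and 3047 on the MOE430_2 arrays, a mean ratio of -0.10 ± 0.12. A further Gusb probe set was lower on both types, at -0.40 and -0.49 (limma adjusted p = 0.0969 over all probe sets). Idua, the iduronidase, was at 0.07, and Naglu, which removes N-acetylglucosamine from heparan sulfate, at -0.05. The sulfatases Sgsh and Galns went opposite ways on the array types, Sgsh at -0.13 on 430A and 0.59 on MOE430_2, Galns at -0.17 and 0.31.

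The remaining sulfatases of this class were measured well on the MOE430_2 arrays alone, which hold 1 sample of each genotype, so no test was made. Ids, the iduronate sulfatase, had a signal of 518.9 in wild type and 837.3 in deficient GMP, a ratio of 0.64, which exceeded 95.0% of the ratios of the 5223 probe sets that are on that array type alone and pass the same filter on low signal, whatever their brightness. Its 5 probe sets on both types were too dim to be tested. Arsb, the N-acetylgalactosamine sulfatase, was at 5774 and 7361 for its brightest probe set, a ratio of 0.35, and at -0.02 for the next. Sumf1, the enzyme that activates all sulfatases, is outside the list of 42 and rose, from 179.7 to 328.1 on the 430A and from 300.1 to 618.0 on the MOE430_2 arrays (mean 0.83 ± 0.15, limma adjusted p = 0.00891). Of the sulfatases, Arsa, Galns and Sgsh, and Arsg from outside the 42 (mean 0.20), were tested and did not pass.

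Neither glycogen nor cholesterol handling genes passed. Gaa, the acid alpha-glucosidase, was at -0.09 ± 0.14, and a second probe set was at 0.24. Lipa, the acid lipase that frees cholesterol from its esters, had signals of 1024 and 1356 on the 430A and 569.0 and 723.5 on the MOE430_2 arrays. It was higher on both types, at 0.39 and 0.32, with a mean of 0.35 ± 0.13 and a limma adjusted p of 0.155. The signals of the genotypes overlapped across types, which were quantile normalized separately. Its other probe sets were at 0.06 and -0.03 on 430A and 0.99 and 0.49 on MOE430_2, so its size depended on the probe set and the array type. Npc2, which passes cholesterol to the membrane protein Npc1, had signals from 6199 to 7723 on the 4 arrays, with a mean ratio of -0.02 and a 95% interval from -0.23 to 0.19. Npc1 was at 0.09 ± 0.18.

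Ppt1, the thioesterase that removes fatty acids from proteins, was the lysosomal gene with the lowest ratio. Its signal was 876.4 and 611.7 on the 430A and 1223 and 1041 on the MOE430_2 arrays, a mean ratio of -0.35 ± 0.14 (limma adjusted p = 0.168). A dimmer Ppt1 probe set was at -0.04, so the lower value rested on 1 probe set. Tpp1, the tripeptidyl peptidase, was at 0.19 ± 0.12 and had the same sign on both types. Lgmn, an asparaginyl endopeptidase that processes other lysosomal enzymes, had signals between 5.33 and 20.9, under the filter at 76.8, and was not tested.

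The acid phosphatases differed in their values. Acp5 was among the dimmest tested genes of the list, with signals of 95.8 in wild type and 260.8 in deficient GMP on the 430A arrays, and 168.6 and 289.2 on the MOE430_2 arrays. It had the highest ratio of the 37, 0.86 ± 0.19, or 1.82-fold (limma adjusted p = 0.0186), with a larger value on the 430A pair, 1.09, than on the MOE430_2 pair, 0.63. Acp2, the lysosomal acid phosphatase, was at -0.02 ± 0.15 for its brightest probe set, with signals of 446.8 and 426.5, and 244.0 and 247.1. Its other probe sets were at 0.34 and 0.41, neither past the test.

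Of 5 tested lysosomal membrane proteins 0 passed at the gene level, with a median of 0.17. Laptm5, a membrane protein of blood cell lysosomes, had signals of 3033 and 3380 on the 430A and 3589 and 4920 on the MOE430_2 arrays for its brightest probe set, a ratio of 0.30 ± 0.12 (limma adjusted p = 0.163). A second Laptm5 probe set rose from 2559 to 4065 and from 1798 to 2998, a ratio of 0.69 (limma adjusted p = 0.0087 over all probe sets). The remaining tested probe set was at 1.51 on 430A and 0.27 on MOE430_2 and did not pass (limma adjusted p = 0.069). With the mean over its probe sets Laptm5 passed, at 0.63 (limma adjusted p = 0.0195), so its call depended on how probe sets were combined.

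Lamp1 and Lamp2, the most abundant proteins of the lysosomal membrane, did not pass. Lamp1 was at 0.21 and 0.13 on the 430A and MOE430_2 arrays, with signals of 4486 and 5202, and 4174 and 4585. Lamp2 was at -0.19 on 430A and 0.55 on MOE430_2 for its representative probe set, the one of highest mean signal, and its other 3 probe sets had means of 0.09, 0.35 and -0.03. Scarb2, the receptor that carries glucocerebrosidase to lysosomes, was at -0.11 ± 0.13, and Mcoln1, a calcium channel, at 0.01 ± 0.17, with opposite signs on the 2 types.

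**Figure D3:**
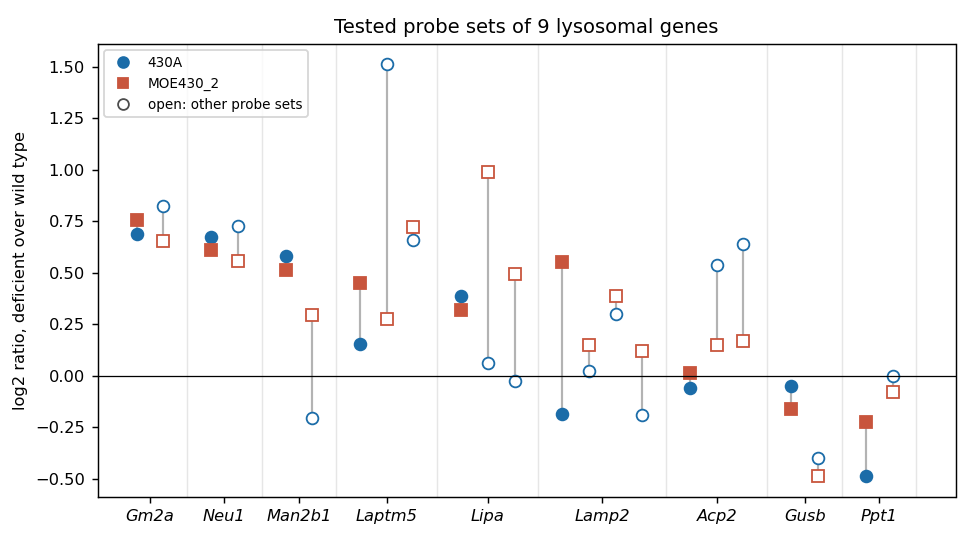
Log2 ratios of every tested probe set of 9 lysosomal genes on the 430A (circles) and MOE430_2 (squares) arrays, filled for the probe set that represents the gene and open for the others. The probe sets of Gm2a and Neu1 all lie above 0.5, while those of Man2b1, Laptm5, Lipa, Lamp2 and Acp2 spread widely.

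Over the 62 tested probe sets of lysosomal genes, 6 were higher and 0 lower at an adjusted p under 0.05 over all 13576 probe sets, or 9.68%, where 2.99% of all probe sets were higher and 2.14% lower. These 6 were 2 of Gm2a and 1 each of Neu1, Man2b1, Acp5 and Laptm5. Several probe sets were tested for 19 genes. In 14 the means over both array types all lay on 1 side of 0, the exceptions being Acp2, Fuca1, Gaa, Lamp2 and Npc2. A mean can hide opposite signs on the types, as for the dimmer Man2b1 probe set, with a mean of 0.04. The share of all genes whose probe sets lay on 1 side was not computed.

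The 4 listed genes of the vacuolar proton pump had mean ratios between 0.06 and 0.27 and none passed. Atp6ap1, an accessory subunit, had signals of 1774 and 2135 on the 430A and 2247 and 2707 on the MOE430_2 arrays, and was at 0.26 on each type (± 0.12, limma adjusted p = 0.23). Atp6v0d1 of the membrane sector was at 0.10 and 0.45. The subunits of the ATP-cleaving sector disagreed between types, Atp6v1a at -0.29 and 0.42, and Atp6v1h at 0.50 and -0.05. Of 13 further pump subunits tested, 0 passed, with a median of 0.15. Of these 10 were positive, or 76.9%, against 48.4% of all genes.

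The regulators did not pass either. Tfeb had signals of 190.0 and 182.5 on the 430A arrays and 171.5 and 261.2 on the MOE430_2 arrays, so the ratio was -0.05 on 1 type and 0.49 on the other. Mitf had signals between 180.0 and 267.6, with a mean ratio of 0.01 and a 95% interval from -0.37 to 0.39. A further list of 15 tested genes covered the control of Tfeb, mostly by the kinase mTOR and the phosphatase calcineurin. Of these 1 rose, or 6.67%, and 0 fell, with a median of 0.11. Over all genes 4.12% rose and 3.29% fell. The gene that rose was Ppp3ca, a catalytic subunit of calcineurin, at 0.65 ± 0.13 (limma adjusted p = 0.012). Its signal went from 1008 to 1719 on the 430A and from 1117 to 1679 on the MOE430_2 arrays. The list also held Tfec, a further MiT/TFE factor, brighter than Tfeb and Mitf. Tfec signals were 2195 and 2770 on the 430A and 2078 and 2440 on the MOE430_2 arrays. It was higher on both types, at 0.33 and 0.23, and did not pass (mean 0.28 ± 0.12, limma adjusted p = 0.200).

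Since Tfeb and Mitf bind the E-box CACGTG, the RefSeq promoter windows (GRCm38.p6, 250 bases before to 50 after the start of a gene) were searched for it on both strands. Windows were found for 37 of the 42 genes, not the same 37 as those tested. The core CACGTG was in windows of 11 of these genes, or 29.7%, against 8.09% of all 27025 genes with a window. The longer TCACGTGA, which contains the core, was in 4, or 10.8%, against 1.12%. The 11 were Arsa, Atp6v0d1, Atp6v1a, Gaa, Gla, Glb1, Lamp1, Lgmn, Mcoln1, Naglu and Sgsh. The ETS-IRF composite (GGAA, any 2 bases, GAAA) and the interferon response core (GAAA, any 2 bases, GAAA), both of a kind that Icsbp can bind, were in 1 window each, of Scarb2 and Lamp1, against 3.16% and 3.99% of all genes. Windows with 4, 2, 1 and 1 cores are shown first, then those of 2 genes that rose and have none. Capitals mark the E-box core, all bases lie before the start site and outside annotated genes, and each sequence is read 5′ to 3′ on the plus strand, at chr8:13159080-13159160 for Lamp1, chr8:3500428-3500499 for Mcoln1, chr9:114401010-114401055 for Glb1, chr11:101070001-101070046 for Naglu, chr11:55097905-55097984 for Gm2a and chr17:34931173-34931252 for Neu1.
Lamp1: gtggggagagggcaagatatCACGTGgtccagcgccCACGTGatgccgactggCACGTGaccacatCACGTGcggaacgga
Mcoln1: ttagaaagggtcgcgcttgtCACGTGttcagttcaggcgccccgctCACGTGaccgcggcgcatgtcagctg
Glb1: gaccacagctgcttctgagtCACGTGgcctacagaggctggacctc
Naglu: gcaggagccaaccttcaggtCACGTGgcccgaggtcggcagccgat
Gm2a: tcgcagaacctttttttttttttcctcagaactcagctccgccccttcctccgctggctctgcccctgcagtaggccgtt
Neu1: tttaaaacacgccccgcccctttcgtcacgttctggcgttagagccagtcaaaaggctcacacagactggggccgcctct

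None of the 4 genes that rose had an E-box core in its window, where 8.09% of all genes and 29.7% of the listed genes with a window had it. The share among all genes that rose was not computed, and 4 genes are too few to tell their share from either. The 10 tested genes with a core had ratios from -0.09 for Gaa to 0.27 for Atp6v0d1, with a median of 0.10 and 0 called. The 23 tested genes with a window and no core had ratios from -0.35 to 0.86, with a median of 0.18 and 4 called. These are descriptions of short windows, and a missing match says only that the letters are not in that window.

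**Figure D4:**
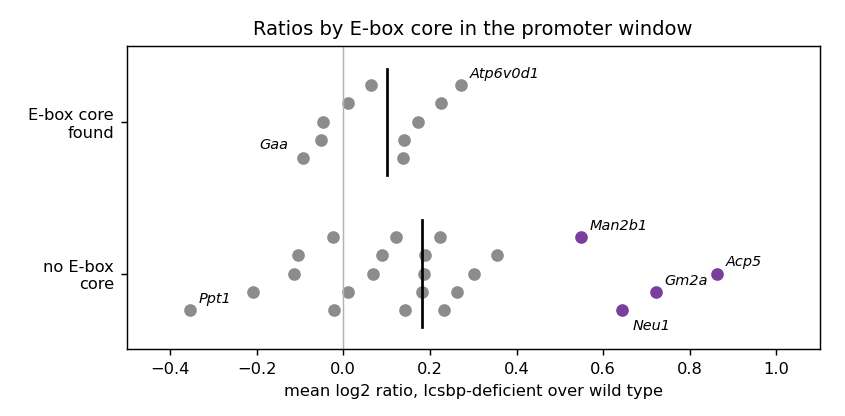
Mean log2 ratio of the tested lysosomal genes with a promoter window, split by whether the window holds the E-box core; each point is a gene, vertical offsets only separate points, and bars are the medians of 0.10 (n = 10) and 0.18 (n = 23). Purple points are the 4 genes that rose, all without the core, which 8.09% of all genes with a window hold.

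Further lists held lysosomal genes outside the 42, and genes that control Tfeb together with Tfec. The 4 further lists were hydrolases and cofactors, membrane and sorting proteins, pump subunits, and control of Tfeb. Of their 70 tested genes 5 rose, or 7.14%, and 0 fell, with a median of 0.15. Positive ratios were found for 52, or 74.3%. Over all genes 4.12% rose, 3.29% fell and 48.4% had a positive ratio. These lists too were chosen with earlier results known, and no test compared them with the 42 genes or with all genes. Besides Sumf1 and Ppp3ca these were Smpdl3a, a phosphodiesterase related to Smpd1, Cd68, a heavily glycosylated protein of phagocyte lysosomes, and Sort1, a sorting receptor for lysosomal proteins. Smpdl3a had the highest ratio, 1.21 ± 0.11 (limma adjusted p = 0.000125), from 1743 to 4320 on the 430A and from 2215 to 4929 on the MOE430_2 arrays. Cd68 was at 1.03 ± 0.14 and Sort1 at 0.69 ± 0.12. The mannose 6-phosphate receptors M6pr and Igf2r, which carry most hydrolases to lysosomes, were at 0.07 and -0.27 and did not pass. Of 10 tested cathepsins 2 rose and 2 fell, Ctsb and Ctsl at 0.54 and 0.55, and Ctsh and Ctss at -2.24 and -1.12. The calls of Ctsb and Ctsl depended more on the processing, as given below.

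Markers of other cells moved between the same arrays, beside the 4 GMP markers given above. Over all genes 4.12% rose and 3.29% fell. Of 10 tested mature neutrophil genes 8 rose, with a median ratio of 1.54. The whole list of 11, of which 10 had a probe set and none lay under 50 on all arrays, summed to 10946 in wild type and 28775 in deficient GMP on 430A, and to 21282 and 51737 on MOE430_2. Genes of monocytes and macrophages had summed signals of 8089 and 7866, and 10252 and 9990, with C1qa, C1qc and Spic under 50 on all arrays. These near-equal sums hide opposite changes, with 2 higher and 3 lower of 10 tested. Ccr2 (1.43) and Cd68 (1.03), the latter also counted above as a lysosomal gene, were higher. Ly86 (-4.79), Klf4 (-2.74) and Vcam1 (-1.11) were lower. Eosinophil, basophil and mast cell genes fell in 8 of 8 tested cases, from summed signals of 6318 and 8896 to 2231 and 2264. Dendritic cell genes passed as lower in 3 of 6 tested cases and erythroid genes in 2 of 6, while 0 of 4 B cell genes and 0 of 1 T or NK cell gene passed. The part of these cells in the lysosomal values was not tested. Without array type as a block, 0 of the 37 passed, and over all genes 0 rose and 1 fell. Gm2a and Acp5 alone passed without an intensity trend in the variance, and Acp5 alone with the values as deposited.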

How the data were processed

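The authors deposited linear signal intensity for each probe set of each array, in 2 value tables (22690 probe sets on 430A, 45101 on MOE430_2). Per the submitters' processing notes GCOS was used with MOE430_2; the sources used here give neither its settings nor the software of the 430A arrays. The trimmed mean of the deposited intensity was 500.2 and 167.7 on the wild type and deficient 430A arrays and 82.1 and 80.6 on the MOE430_2 arrays, so the arrays were rescaled. Over 22626 shared probe sets without controls, signals were multiplied so that every array had a trimmed mean (2% off each tail) of 500, 50 was added, log2 taken, and the arrays of a type quantile normalized. Probe sets under the 40th percentile of mean signal were left out, which left 13576. A gene was its brightest tested probe set (7820 genes). limma 3.58.1 in R 4.3.3 fitted genotype with array type as a block and an intensity trend, with 9.65 prior degrees of freedom, and Benjamini-Hochberg adjustment over genes, or over probe sets where said. Probe sets on MOE430_2 alone were scaled by the same factors and quantile normalized over all probe sets of that type. The number of arrays limits the precision. Symbols came from the platform annotation (20380 shared probe sets with 1 symbol, 691 with several, 1555 with none), updated through RefSeq GRCm38.p6 for 20351. All genes and lists were chosen with earlier results of these data known. By the rule for names, every listed gene with a probe set was accounted for, those that passed or reached a ratio of 0.5 on both types with all 4 values, and pathway genes outside the list were named where they passed. M6pr, Igf2r, Arsg and Tfec were named after their values were seen. Tests were two-sided. The pools are separate preparations, 1 of each genotype per array type.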

Additional observations from a re-analysis of the deposited data

How the results depend on the processing

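The count of lysosomal genes that rose was 4 and the median ratio 0.14 as reported. The same 4 genes passed with scaling alone, cyclic loess, an offset of 16 or 200, a floor of 50, and adjustment over probe sets. With the mean over probe sets 4 passed, Laptm5 in place of Man2b1. With no filter and with the 60th percentile filter 3 passed, Acp5 being lost (adjusted p = 0.0963) and untested respectively. The count was 2 with no trend, 1 with the values as deposited, and 0 with no replicate block (array type is the block, which pairs 1 array of each genotype). That unblocked model counts the difference between array types as spread. Leaving out 1 array of it in turn, which leaves 1 array of a genotype, gave a median from 0.0654 to 0.210. Over all genes the median then ran from -0.0802 to 0.0710. No lysosomal gene passed as lower in any of the 12 other settings with all 4 arrays. The median was 0.0976 on the 430A arrays alone, 0.110 with an offset of 200 and -0.0354 on deposited values, for which the median of all genes shifted to -0.132. The median of lysosomal genes exceeded that of all genes by 0.0962 to 0.196 in all 18 settings. No called ratio changed sign. Among the cathepsins, Ctsl did not pass with an offset of 16, a floor of 50, no filter, no trend, adjustment over probe sets or the values as deposited. Ctsb did not pass with the mean over probe sets, no trend or the values as deposited. With all 4 arrays, Ctsh and Ctss failed to pass only with no replicate block, where Ctsb and Ctsl failed too. Over all genes, the counts higher and lower were 322 and 257 as reported, 433 and 399 with scaling alone, 173 and 114 with no filter, 190 and 140 with no trend, 91 and 134 with the values as deposited, and 0 and 1 with no replicate block. The deposited values were used as log2(value + 50) centred on each array's median, with no scaling to a common mean. The cause of the lost calls was not tested.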

Other observations

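Probe sets of lysosomal genes that were not tested add values only. The 5 dim Ids probe sets on both array types had ratios from -0.47 to 0.60 on the 430A and from -0.17 to 0.33 on the MOE430_2 arrays. The x-type probe set of Neu1 had signals of 144.1 and 150.8 on the 430A arrays but 3.45 and 2.35 on the MOE430_2 arrays, so it was read on 1 array type alone. Further Laptm5 probe sets on the MOE430_2 arrays had ratios of 0.22 and 0.42, and further Npc2 and Smpd1 probe sets there had ratios of 0.16 and 0.09.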
